A study of Mus musculus with 4 samples.

Results

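The genes described are the 9 that build the calcium channels and pumps of the endoplasmic reticulum: the IP3 receptors Itpr1, Itpr2 and Itpr3, the ryanodine receptors Ryr1, Ryr2 and Ryr3, and the SERCA pumps Atp2a1, Atp2a2 and Atp2a3. They were chosen by gene symbol, not by a rule on their values, though earlier results of these data were known. They make up 9 of the 32564 genes and 60 of the 99567 transcripts quantified. RNA was sequenced in 4 libraries, which the labels place in 1 group of activated neural stem cells of the adult mouse brain. The cells came from gfap:GFP mice of 3 months on a mixed CD1 and C57BL/6 background, were sorted as Prom1+, EGFR+ and GFAP+, and were untreated. The gfap:GFP reporter marks cells in which the Gfap promoter is active, so astrocytes carry it too, and the sort rests on the other 2 markers to part them. The series' design text speaks instead of quiescent cells after aCSF or miR204 antagomers; since each sample is labelled untreated, the libraries are taken as 1 group here.

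Both kinds of release channel sit in the membrane of the endoplasmic reticulum and let stored calcium out into the cytosol. IP3 receptors open when inositol trisphosphate, made by phospholipase C after a surface receptor is engaged, binds together with calcium, and ryanodine receptors open mainly on calcium itself or, in skeletal muscle, by contact with a voltage sensor. SERCA pumps spend ATP to carry the calcium back. In astrocytes and in neural progenitors, calcium release through IP3 receptors and refilling by SERCA underlie the slow calcium waves for which these cells are known.

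The sorting markers were present in every library: Gfap averaged 147 ± 52.2 TPM, Egfr 73.2 ± 21 TPM and Prom1 21.9 ± 7.96 TPM (SD, n = 4). TPM, the length-corrected abundance unit of the deposited files, is a level per length, so genes of one library were compared by it. The main transcripts compared run from 4486 bases for Atp2a2-201 to 16813 for Ryr2-201. Whether the amplification of the RNA kept long and short transcripts alike was not tested. Depth was 16978938 to 23727664 estimated counts per library. Markers of several other cell types were present as well. Of 8 endothelial or mural markers, however, only 1, Pdgfrb, had a mean above 1 TPM. Summed over each list, astrocyte markers, which neural stem cells share in part, lay between 3240 and 4393 TPM, ependymal markers between 599 and 1199 TPM and neuroblast markers between 229 and 423 TPM. Oligodendrocyte markers lay between 394 TPM in library 1 and 1928 TPM in library 4, microglia markers between 106 TPM in library 1 and 380 TPM in library 3, and mature neuron markers between 821 TPM in library 3 and 1050 TPM in library 1. Whether each library is a separate animal is not stated, so each SD and p-value measures the spread between these 4 samples, which may be technical, and if the design text applied it could also hold a difference between treatments. In such sorted samples, fewer cells expressing a gene and less RNA per cell cannot be told apart.

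One pump and one release channel dominated. Atp2a2 had 155 ± 28.9 TPM in its protein-coding transcripts, Itpr1 23.0 ± 4.55 TPM and Itpr2 4.70 ± 1.06 TPM (SD, n = 4), and none of the other 6 genes had a mean above 1.39 TPM. Levels here are sums over transcripts annotated protein-coding, because several of these long genes also carry short transcripts with no coding sequence. Each mean of log2(TPM + 1) was set against its value at 1 TPM by limma, two-sided, with Benjamini-Hochberg adjustment over 16679 genes and a threshold of 0.05. Atp2a2, Itpr1 and Itpr2 were above 1 TPM, 3 of the 9 genes, where 71.0% of all tested genes were above. Itpr3, Ryr1, Ryr2 and Ryr3 were below 1 TPM, 4 of the 9 genes, where 16.6% of all tested genes were below. Atp2a1 and Atp2a3 passed in neither direction. edgeR's quasi-likelihood test gave the same calls for the 9 genes, while over all genes it put 72.5% above and 5.51% below. Its adjusted p-values for the 4 genes below were much larger than those of limma, between 0.0152 for Ryr3 and 0.0424 for Ryr2. The limma differences from 1 TPM given here are on the log2(TPM + 1) scale. The added 1 TPM shrinks them in both directions, most of all for genes near 0 TPM.

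**Figure D1:**
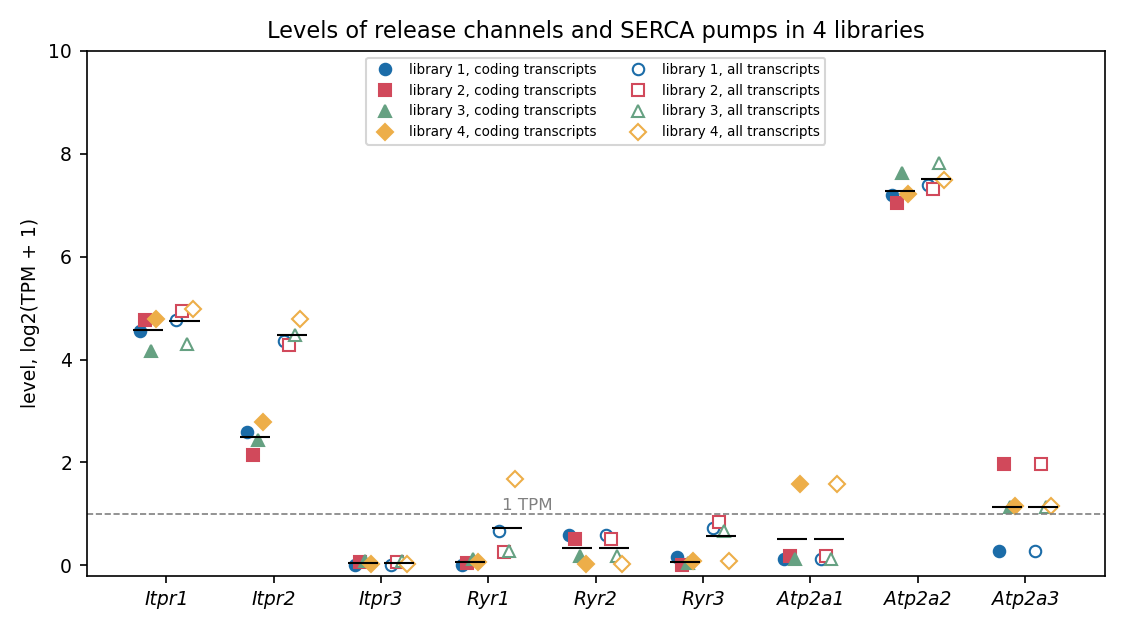
Level of each gene as log2(TPM + 1) in each of the 4 libraries, for protein-coding transcripts (filled) and for all transcripts (open); horizontal bars are means of the 4 values and the dashed line is 1 TPM. Atp2a2 lies highest in every library, and Itpr2 is the gene whose filled and open points lie furthest apart (means of 4.70 and 21.5 TPM).

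Atp2a2 encodes SERCA2, the pump found in nearly all cell types. It lies on chromosome 5 of GRCm38 (122453513 to 122502225, minus strand). Its coding level was 146, 130, 197 and 148 TPM in libraries 1 to 4, from 8066 to 10067 estimated counts. Library 3 was the highest, and the lowest library still exceeded the highest value of the other 8 genes. The mean of log2(TPM + 1) stood 6.27 (SE 0.11) above its value at 1 TPM, with a limma adjusted p of 1.64e-08. Without the added 1 TPM, edgeR put the log2 difference at 7.27. By mean coding TPM, Atp2a2 held rank 716 of the 16679 genes tested. The SD of its log2(TPM + 1), 0.25, was above the median of 0.17 over genes of like level (mean TPM within a factor of 1.5). It was larger than in 80.4% of those genes.

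SERCA2 comes in splice forms that differ at the C-terminus, and the annotation separates them. SERCA2a, the form of heart and slow skeletal muscle, ends in a short tail, while SERCA2b, the form of most other cells, has a longer tail that adds a further membrane span. Atp2a2-201 codes for 1044 residues and reads on into the long tail, whereas Atp2a2-202 codes for 998 residues and splices to a short last coding exon. The ends of their coding sequences follow, because they hold the coding bases in which the long and the short form differ. The last 30 shared bases are in lower case, and the bases that belong to each form up to and including its stop codon are in capitals (GRCm38, minus strand, chr5:122457151-122457302 for the long end and chr5:122454291-122454304 for the short end, from GENCODE M21 transcripts).
Atp2a2-201 end: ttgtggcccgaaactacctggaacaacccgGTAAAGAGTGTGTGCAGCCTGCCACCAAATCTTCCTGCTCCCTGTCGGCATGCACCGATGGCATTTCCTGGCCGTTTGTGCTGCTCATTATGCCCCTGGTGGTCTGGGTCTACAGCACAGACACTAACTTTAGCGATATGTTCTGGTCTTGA
Atp2a2-202 end: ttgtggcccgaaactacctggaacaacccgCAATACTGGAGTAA

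The long form prevailed in all 4 libraries. Atp2a2-201 took 80.9, 72.2, 79.0 and 74.0% of the TPM of the gene (76.5% ± 4.08), and Atp2a2-202 took 6.15, 10.7, 8.21 and 8.80% (8.46% ± 1.88; SD, n = 4). The short form rested on 614 to 958 estimated counts per library. In TPM the short form reached 15.3 ± 3.56, which is above the whole coding level of Itpr2. Atp2a2-203, at 13.0% ± 2.11, is annotated as a target of nonsense-mediated decay, the pathway that degrades mRNAs with an early stop. Its coding sequence is nonetheless identical to that of Atp2a2-201, and what sets it apart is a further splice junction 1261 bases after the last coding base. Counting all 3 transcripts with a whole coding sequence, the short C-terminus made up 6.21, 11, 8.40 and 8.99% (8.65% ± 1.97). The precision of the share of each single transcript is limited by the few bases found in it alone. For Atp2a2-201, 51 of 4456 31-base words occur in no other transcript of the annotation. These counts were 30 of 3954 for Atp2a2-202 and 478 of 5644 for Atp2a2-203. Words of the long coding end are not among them, since Atp2a2-201 and Atp2a2-203 share that end. Atp2a2-202 lacks that end, so such words still part the long C-terminus from the short one. The authors' program divided reads common to several transcripts by estimate, so the SD between libraries does not cover an error common to all libraries.

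**Figure D2:**
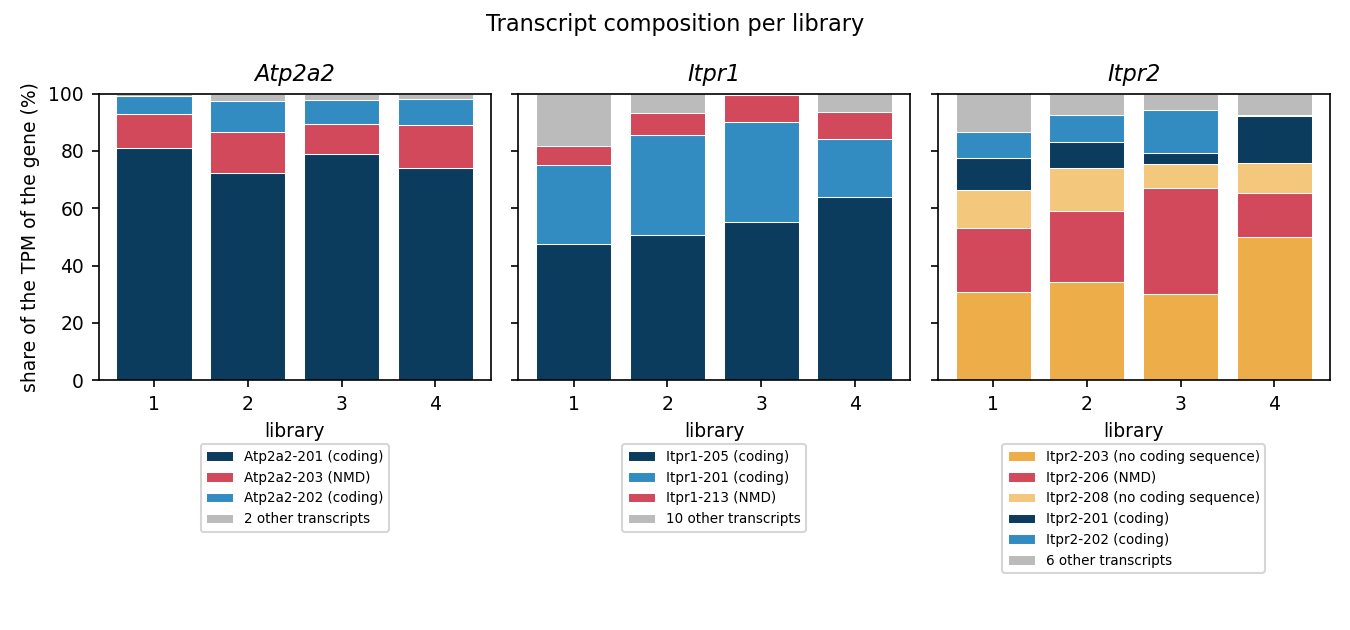
Share of each transcript in the TPM of its gene (percent, all transcripts of the gene) in libraries 1 to 4 for Atp2a2, Itpr1 and Itpr2; NMD marks transcripts annotated as targets of nonsense-mediated decay. The long form Atp2a2-201 holds 72.2 to 80.9% in every library, and the coding transcripts of Itpr2 hold between 18.3 and 26.0%.

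Atp2a3 encodes SERCA3, a pump known from blood cells, platelets, lymphocytes and some epithelia (chromosome 11, 72961169 to 72993044, plus strand). Its coding level was 0.219, 2.92, 1.19 and 1.24 TPM, from 15, 185, 57 and 86 estimated counts. Library 2 was the highest and library 1 lay well below the others. At least 99.8% of its TPM was given to Atp2a3-204 in library 1 and to Atp2a3-203 in libraries 2 to 4. Neither has a 31-base word found in no other transcript, so each share rests on sequence common to other transcripts. Words that part these forms from each other were not counted, so how well the forms are resolved is not known. The mean was 1.39 ± 1.12 TPM and passed in neither direction (log2 difference from 1 TPM 0.14, SE 0.27, limma adjusted p = 0.647). Erythroid and platelet markers also differed between libraries, with a sum of 40.7, 339, 241 and 1152 TPM; 5 of these 8 genes had a mean above 1 TPM. Most of that sum came from the globin genes Hbb-bs and Hba-a1. Both globin genes and Alas2 (0.0956, 2.14, 1.13 and 2.96 TPM) were lowest in library 1, as Atp2a3 was, but highest in library 4. The platelet genes Pf4 (6.10, 3.72, 6.55 and 2.43 TPM) and Itga2b (0.991, 3.11, 4.11 and 0 TPM) were both highest in library 3 and lowest in library 4. Of the platelet genes with lower means, Ppbp (0, 0.746, 0 and 0 TPM) was highest in library 2, as Atp2a3 was, and Gp9 (0, 0.191, 0.507 and 0 TPM) in library 3. The part of such cells in the Atp2a3 result was not tested.

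Atp2a1 encodes SERCA1, the pump of fast skeletal muscle (chromosome 7, 126445858 to 126463108, minus strand). Its coding level was 0.0965, 0.132, 0.0929 and 2.003 TPM, from 5.0, 2.0, 3.4 and 60.1 estimated counts. Library 4 alone was high, and the other 3 libraries lay close together. The mean of 0.581 ± 0.948 TPM passed in neither direction (log2 difference -0.49, SE 0.27, limma adjusted p = 0.13), but without library 4 the level was below 1 TPM (-0.85, adjusted p = 0.000173). The sum of 10 smooth and striated muscle markers was 34.9, 47.3, 16.3 and 26.4 TPM, and 5 of them had a mean above 1 TPM. Of these 5, Tnnt2 (0.136, 0, 0.776 and 4.08 TPM), Myh7 (2.73, 2.24, 1.92 and 4.05 TPM) and Tagln (7.67, 5.84, 2.75 and 7.95 TPM) were highest in library 4, as Atp2a1 was. Acta2 (13.8, 31.5, 5.51 and 9.004 TPM) and Actn2 (10.1, 6.10, 3.87 and 0.798 TPM) were not. None of the 5 markers with lower means was highest in library 4 either. Myh11 and Des were highest in library 3, and Cnn1, Myh6 and Actc1 in library 2. The part of muscle cells in the Atp2a1 result was not tested. Exons of Rabep2, which codes for an endosomal protein, overlap those of Atp2a1 on the opposite strand, and 20.5% of the 31-base words of the longer Atp2a1 transcript also occur in another gene. Rabep2 had 14.9, 16.2, 25.2 and 13.2 TPM and was lowest in library 4; whether the counting used the strand is not given in the sources used here. Together the 3 pump genes came to 146, 133, 198 and 151 TPM, of which Atp2a2 held 98.7% ± 1.05.

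**Figure D3:**
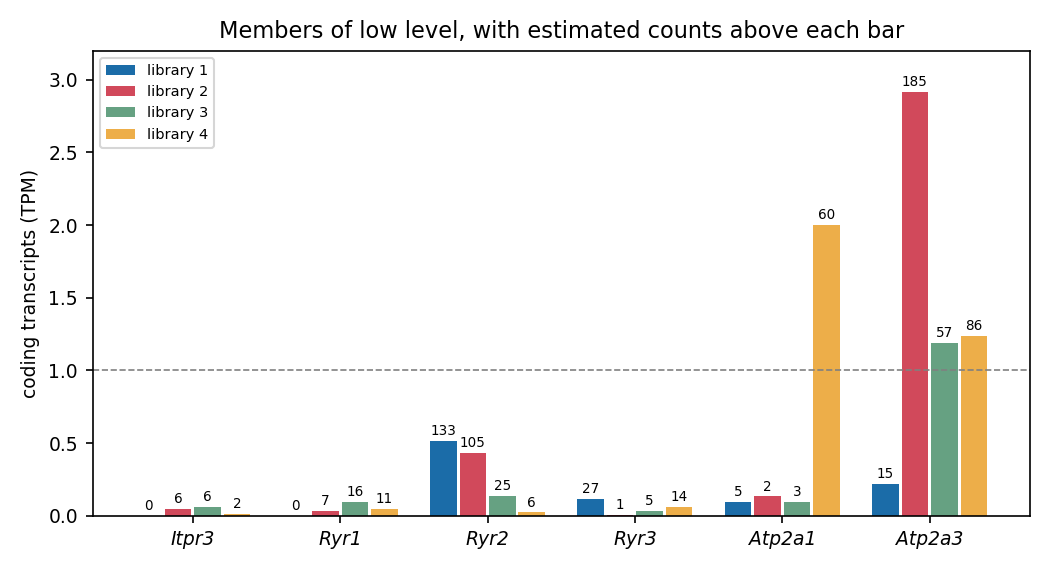
Coding level (TPM, linear axis from 0) of the 6 genes with means of 1.39 TPM or less in libraries 1 to 4, with the estimated counts above each bar; the dashed line is 1 TPM. Atp2a1 stands out in library 4 (2.003 TPM) and Atp2a3 in library 2 (2.92 TPM), while Ryr2 is higher in libraries 1 and 2 than in libraries 3 and 4.

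Itpr1 encodes the IP3 receptor subtype best known from neurons, and in particular from cerebellar Purkinje cells (chromosome 6, 108213096 to 108551109, plus strand). Its coding level was 22.4, 26.2, 16.8 and 26.7 TPM, from 1785 to 3960 estimated counts. Library 3 was the lowest, and no value overlapped those of Itpr2. The mean of log2(TPM + 1) stood 3.56 (SE 0.14) above its value at 1 TPM (limma adjusted p = 7.4e-07). Without the added 1 TPM, edgeR put the log2 difference at 4.52. The SD of log2(TPM + 1), 0.29, was close to the median of 0.28 over genes of like level. Coding transcripts held 84.7, 88.2, 90.1 and 87.2% of the TPM of the gene. Itpr1-213, a short transcript annotated as a target of nonsense-mediated decay, held 8.34% ± 1.29.

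Itpr1 is alternatively spliced at sites known as SI, near the IP3-binding part, and SII, in the coupling domain between the sites phosphorylated by protein kinase A. Inclusion of SII is known from neurons and its absence from many peripheral tissues. Mature neuron markers summed to 1050, 857, 821 and 885 TPM in libraries 1 to 4. The part of neurons in the level of Itpr1 and in its splice forms was not tested. The transcripts with a whole coding sequence are Itpr1-201, with 2749 residues, and Itpr1-205, with 2748. Both contain exon 10 (45 bases, 15 codons) and exons 38 to 40 (33, 36 and 51 bases). These match SI and SII in place and length. Exon numbers of Itpr1, here and below, count coding exons only. Within the stretch of exons 38 to 40, the whole forms differ by a single codon at the start of exon 40, which Itpr1-205 lacks. The stretch is printed with 20 bases of the flanking exons on each side, because it holds the difference between the forms quantified (GRCm38, plus strand, chr6:108423333-108432696). The capitals mark the 3 bases that only Itpr1-201 has, at chr6:108432646-108432648. The third line is a fragment, Itpr1-206, in which the flanking exons are joined directly.
Itpr1-201: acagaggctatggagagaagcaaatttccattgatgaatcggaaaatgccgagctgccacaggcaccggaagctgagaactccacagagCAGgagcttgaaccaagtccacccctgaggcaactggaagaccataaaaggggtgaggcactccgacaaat
Itpr1-205: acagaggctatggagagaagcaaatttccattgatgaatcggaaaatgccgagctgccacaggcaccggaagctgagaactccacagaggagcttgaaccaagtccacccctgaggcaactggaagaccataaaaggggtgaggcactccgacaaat
Itpr1-206: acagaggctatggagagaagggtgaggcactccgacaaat

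By estimated counts, the whole forms holding the alternative exons received nearly all reads of Itpr1. Itpr1-205 took 47.4, 50.8, 55.3 and 63.9% of the TPM of the gene and Itpr1-201 took 27.6, 34.7, 34.8 and 20.3%. Of both whole forms together, the one without the extra codon made up 63.2, 59.4, 61.4 and 75.9% (65.0% ± 7.44). Itpr1-205 was ahead in all 4 libraries, by most in library 4. The fragment Itpr1-206, which skips exons 38 to 40, received 26.8, 0, 0 and 6.2 estimated counts, which in its short length made 8.31, 0, 0 and 1.61% of the TPM of the gene, and Itpr1-208, a fragment that skips exon 10, received 3.0, 1.9, 0 and 3.4; both were singled out after their values were seen. These fragments are 939 and 647 bases long against 9870 for Itpr1-201, and no full-length transcript without these exons is in the index, so reads from such an mRNA outside the junction would have been given to the whole forms. No 31-base word is particular to Itpr1-205, against 134 of 9840 for Itpr1-201. The split between the whole forms is therefore an estimate, whose error the SD between libraries may not hold in full.

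Itpr2 encodes the IP3 receptor subtype known as the main one of astrocytes (chromosome 6, 146108299 to 146502223, minus strand). Its coding level was 5.06, 3.40, 4.43 and 5.90 TPM, from 486 to 606 estimated counts. Library 2 was the lowest, and all 4 values lay above 1 TPM (log2 difference 1.49, SE 0.20, limma adjusted p = 0.000481). With the most abundant coding transcript alone the call was lost (0.59, limma adjusted p = 0.0997). With all transcripts the level was 19.5, 18.5, 21.4 and 26.7 TPM, which moved Itpr2 next to Itpr1 and above it in library 3. Coding transcripts thus held 26.0, 18.3, 20.7 and 22.1% of its TPM (21.8% ± 3.21). By estimated counts they held 61.7% ± 2.09, since the coding transcripts are long and a read on a short transcript weighs more in TPM.

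The remainder of the Itpr2 TPM lay in short transcripts. Itpr2-203, a processed transcript of 582 bases and 6 exons with no coding sequence, had the largest mean share, with 30.8, 34.4, 30 and 49.8%, from only 39.7, 39.1, 29.5 and 91.8 estimated counts. Itpr2-206, annotated as a target of nonsense-mediated decay with 79 codons, had 25.0% ± 8.96 and was ahead of Itpr2-203 in library 3 (37.1%), and Itpr2-208, with a retained intron, had 11.8% ± 2.89. Of the coding transcripts, Itpr2-201 had 11, 9.12, 3.65 and 16.4% and Itpr2-202 had 8.88, 9.20, 15 and 0.407%. Library 4 gave nearly everything to the first and library 3 most to the second.

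The coding forms of Itpr2 differ in 1 exon of 99 bases, 33 codons, which Itpr2-201 contains and Itpr2-202 skips, and Itpr2-202 has more untranslated sequence. The exon is printed in capitals with 20 bases of each neighbouring exon in lower case, to show what the forms would add or lose (GRCm38, minus strand, chr6:146418418-146418516).
Itpr2-201: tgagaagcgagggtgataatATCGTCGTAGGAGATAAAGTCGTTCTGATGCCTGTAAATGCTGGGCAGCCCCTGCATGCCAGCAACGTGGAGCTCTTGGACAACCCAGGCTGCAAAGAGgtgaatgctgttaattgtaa
The share of Itpr2-201 among both forms was 55.4, 49.8, 19.5 and 97.6% (55.6% ± 32.1). This SD is so wide that no prevailing form can be named. Itpr2-201 has no 31-base word of its own and Itpr2-202 has 3177 of 11649, most of the difference lying outside the exon.

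Itpr3 encodes the IP3 receptor subtype of many epithelia and secretory cells (chromosome 17, 27057304 to 27122223, plus strand). It had 0, 0.0467, 0.0618 and 0.0142 TPM, from 0, 6, 6 and 2 estimated counts. All 4 libraries were near 0, and 0 counts in library 1 allow a level of up to 0.0218 TPM, taken as 3 counts and covering counting error only. The level was below 1 TPM (difference of log2(TPM + 1) -0.96, limma adjusted p = 6.55e-06). Without the added 1 TPM, edgeR put the log2 difference at -5.00 (adjusted p = 0.0178). Nearly all of its sequence is its own, with 8958 of 8960 words in no other transcript. Together the IP3 receptors had 27.4, 29.6, 21.3 and 32.6 coding TPM, of which Itpr1 held 82.7% ± 4.03.

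Ryr2 encodes the ryanodine receptor of heart muscle, which is also the main one of forebrain neurons (chromosome 13, 11553102 to 12106945, minus strand). It had the highest mean of the 3 ryanodine receptor genes, with 0.512, 0.434, 0.137 and 0.0226 TPM from 133, 105, 25 and 6.0 estimated counts. Libraries 1 and 2 were high and libraries 3 and 4 low, but all 4 lay below 1 TPM (difference of log2(TPM + 1) -0.67, SE 0.12, limma adjusted p = 0.00173). By edgeR the log2 difference was -1.85 (adjusted p = 0.0424). The mature neuron markers, of which 11 of 12 had a mean above 1 TPM and Slc17a6 had no count, summed to 1050, 857, 821 and 885 TPM. Library 1 was the highest for both, while the list varied far less than Ryr2, and the part of neurons in the result was not tested.

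Ryr3, a ryanodine receptor of low abundance in many tissues including brain, had 0.113, 0.0047, 0.0307 and 0.06 coding TPM from 26.8, 1.0, 5.0 and 14.1 counts (chromosome 2, 112631355 to 113217096, minus strand). Every library was far below 1 TPM (difference of log2(TPM + 1) -0.93, limma adjusted p = 1.05e-05). By edgeR the log2 difference was -4.25 (adjusted p = 0.0152). With all transcripts its level was 0.651, 0.790, 0.579 and 0.06 TPM, the excess lying in retained-intron transcripts. Its exons overlap those of Aven, a gene for an inhibitor of apoptosis on the opposite strand that had 13.4 to 21.3 TPM.

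Ryr1, the calcium release channel of skeletal muscle, had 0, 0.0317, 0.0952 and 0.0438 coding TPM from 0, 7.0, 15.9 and 10.6 counts (chromosome 7, 29003344 to 29125179, minus strand). In library 1, 0 counts allow up to 0.0127 TPM. By edgeR the log2 difference was -4.52 (adjusted p = 0.0209). By limma too the level was below 1 TPM (difference of log2(TPM + 1) -0.94, adjusted p = 8.58e-06). This call depended on the coding filter: with all transcripts the level was 0.588, 0.203, 0.210 and 2.19 TPM and passed in neither direction (-0.28, adjusted p = 0.343). By that measure 3 of the 9 genes were above 1 TPM, where 62.8% of all genes tested with all transcripts were, and 3 were below, where 23.3% were. In library 4 most of it, 2.10 TPM, lay in Ryr1-203, a retained-intron transcript of 1028 bases with 29.4 estimated counts, singled out after its values were seen. Together the 3 ryanodine receptor genes had 0.625, 0.470, 0.263 and 0.126 coding TPM.

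In order of mean coding level the genes stood as Atp2a2, Itpr1, Itpr2, Atp2a3, Atp2a1, Ryr2, Ryr3, Ryr1 and Itpr3. The ranges of the 4 libraries did not overlap between Atp2a2 and Itpr1, between Itpr1 and Itpr2, or between Itpr2 and Atp2a3. From Atp2a3 downward the ranges of all neighbours overlapped, so the lower part of the order is not resolved. Within libraries, Itpr1 exceeded Itpr2 by 2.07 ± 0.39 on the log2(TPM + 1) scale in 4 of 4 libraries, and the ratio of TPM was 4.42, 7.72, 3.8 and 4.52. With all transcripts the log2 difference was 0.27 and the TPM ratio 1.36, 1.60, 0.874 and 1.14. Summed IP3 receptors exceeded summed ryanodine receptors by 4.39 ± 0.36 on the log2(TPM + 1) scale in 4 of 4 libraries. The added 1 TPM shrinks this difference, since the ryanodine receptor sums were themselves below 1 TPM; the ratio of the TPM sums was 43.9, 63.1, 81.3 and 258. With all transcripts that ratio was 26.2, 33.8, 43.4 and 25.2. Atp2a2 exceeded Atp2a3 by 6.13 ± 0.79 on the log2(TPM + 1) scale. Each of these 3 differences had an exact sign-flip p of 0.13, the smallest that 4 libraries allow, and 0.196 after Benjamini-Hochberg adjustment over 11 pairs. Among the ryanodine receptors, Ryr2 exceeded Ryr3 by 0.26 ± 0.26 in 3 of 4 libraries (exact sign-flip p = 0.25, adjusted 0.306), which is within the spread between libraries.

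Pump transcripts outnumbered release channel transcripts in every library. The ratio of summed coding TPM, pumps over channels, was 5.20, 4.42, 9.17 and 4.61 (5.85 ± 2.24). With all transcripts it was 3.52, 3.22, 5.52 and 3.04 (3.83 ± 1.15). Library 3, with the highest Atp2a2 and the lowest Itpr1, gave the highest ratio. It is a ratio of monomers: release channels assemble from 4 subunits and SERCA works as a single chain, and RNA levels say nothing of protein.

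For the genes above 5 TPM, the genes with the most similar values were found by the root mean square difference of log2(TPM + 1) over the 4 libraries. For Itpr1 they were Slc50a1 (0.068) and Pura (0.075), and 47 genes lay within 0.2. For Atp2a2 they were Pttg1ip (0.054) and 2810459M11Rik (0.070), and 65 genes lay within 0.2.

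The channels and pumps work with many other proteins, and 77 genes in 6 lists were read for them. Of these, 73 were in the index and 66 had a coding count; 58 were above 1 TPM, 3 below and 5 in neither direction by the same limma test, which put 71.0% of all tested genes above and 16.6% below. Their median log2 difference from 1 TPM was 4.52, against 2.46 over all tested genes. IP3 receptor regulators and enzymes of IP3 metabolism were above in all 14 of 17 genes with a count. Ahcyl1, which codes for the IP3 receptor inhibitor IRBIT, had 242 ± 36.4 TPM, and the BCL2 family members Mcl1 and Bok had 113 ± 18.5 and 81.2 ± 25.0 TPM. Itprid1, Irag1 and Tespa1 had no coding count.

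Of 14 partners of ryanodine receptors with a count, 10 were above and 3 below 1 TPM, shares near the 71.0% and 16.6% of all tested genes. S100a1, a calcium-binding protein that binds the ryanodine receptor but also other targets, had 404 ± 51.2 TPM. Fkbp1a, which codes for the immunophilin FKBP12, had 366 ± 29.6 TPM, and Jph3, a brain junctophilin that ties the reticulum to the plasma membrane, had 80.5 ± 12.6 TPM. Those below were Hrc (0.066 ± 0.094 TPM), the skeletal calsequestrin gene Casq1 (0.329 ± 0.502 TPM) and Stac3 (0.408 ± 0.296 TPM), and Trdn, the triadin gene, had no count. Casq1 and Stac3 lost the call with all transcripts, with edgeR (adjusted p = 0.316 and 0.328) and with rescaling over nuclear coding transcripts (limma adjusted p = 0.101 and 0.132). Casq1 lost it also without library 1 (limma adjusted p = 0.0588) and without library 3 (0.0666). The cardiac calsequestrin gene Casq2 (4.18 ± 2.49 TPM) and the muscle junctophilin gene Jph1 (2.40 ± 1.21 TPM), singled out after their values were seen, were above 1 TPM. Casq2 lost that call without library 3 (0.0506), and Jph1 lost it without library 1 (0.0529), 2 (0.0911) or 3 (0.0956; limma adjusted p).

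Among the regulators of SERCA, 4 of 6 genes with a count were above 1 TPM, close to the 71.0% of all tested genes. Nnat, a small membrane protein of the reticulum resembling phospholamban, had 1059 ± 146 TPM, Hax1 had 66.4 ± 10.1 TPM and the oxidoreductase gene Tmx1 had 63.9 ± 3.48 TPM. The classical inhibitors of muscle passed in neither direction. Pln, phospholamban, had 0.729 ± 0.240 TPM (log2 difference -0.22, limma adjusted p = 0.124). Sln, sarcolipin, had 4.47, 3.68, 0.517 and 0 TPM, high in libraries 1 and 2 and low in libraries 3 and 4 (log2 difference 0.32, limma adjusted p = 0.519). The micropeptide genes Mrln, Strit1, Erln and Arln were not matched.

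Calcium-binding proteins and chaperones of the lumen of the reticulum were the highest list, with a median log2 difference of 6.02. Of its genes 16 of 17 were above 1 TPM, where 71.0% of all tested genes were above. Hspa5, the chaperone BiP, had 353 ± 97.8 TPM, Calr, calreticulin, had 261 ± 43.1 TPM and Rcn2, a reticulocalbin, had 255 ± 41.2 TPM. The lowest were Calr3 at 5.20 ± 1.73 TPM and Calr4 at 0.698 ± 0.857 TPM, the latter in neither direction. All 10 genes of leak and counter-ion channels were above, from Tmbim6 at 112 ± 9.86 TPM, Sec61a1 at 93.2 ± 14.3 TPM and Tmco1 at 88.4 ± 9.46 TPM down to Tmem38b at 7.46 ± 0.971 TPM and the presenilin gene Psen2 at 6.73 ± 2.45 TPM. Of the channels and pumps of other internal membranes, 4 of 5 genes with a count were above, near the 71.0% of all tested genes. Tmem165 of the Golgi had 67.0 ± 7.08 TPM, the Golgi calcium pump Atp2c1 50.3 ± 12 TPM and the lysosomal channel Mcoln1 38.0 ± 12 TPM. Tpcn2 passed in neither direction, and Atp2c2, Mcoln2 and Mcoln3 had no coding count.

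**Figure D4:**
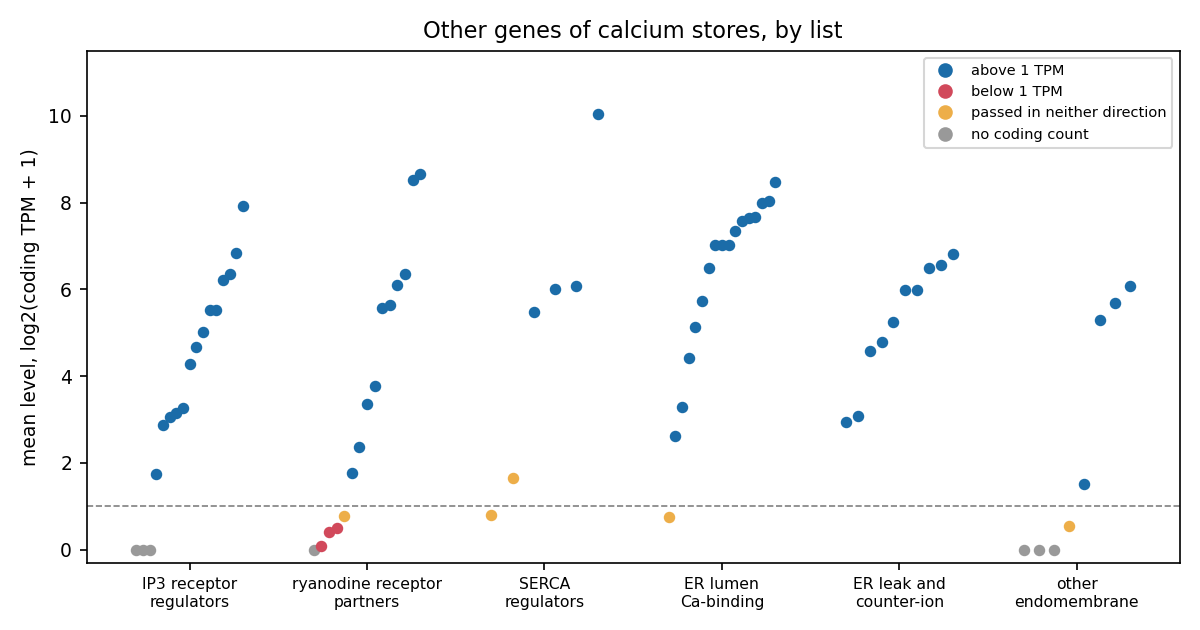
Mean level, log2(coding TPM + 1) over 4 libraries, of each gene in the 6 lists of genes that work with the channels and pumps, ordered by level within a list; colours give the limma call against 1 TPM (dashed line), and grey points had no coding count. The 3 genes called below 1 TPM are ryanodine receptor partners, and of these Casq1 and Stac3 lost the call with edgeR. Jph2, Pln, Calr4 and Tpcn2 also had means below 1 TPM but passed in neither direction.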

How the data were processed

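Per the labels' protocols, RNA of sorted cells was amplified with a low-input kit and sequenced in paired ends; no molecular identifiers are named, so limits cover counting error only. The deposited files give estimated counts and TPM per transcript. The submitters' processing notes name kallisto, sleuth and mm10 but no version; the index release is not stated there. Depth was 22695719, 20526059, 16978938 and 23727664 estimated counts.

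Transcripts were matched to GENCODE M21 (GRCm38) by identifier: 98294 of 99567 matched, 92612 with the same version. TPM was summed over protein-coding transcripts. limma with a mean-variance trend tested log2(TPM + 1) against 1 TPM over 16679 genes with a count. On simulated counts with known levels, this test called 96% of 50 genes at 2 TPM above and 100% of genes at 0.25 TPM below 1 TPM (dispersion 0.1, 16526 genes). Of genes set at 1 TPM it called 2% above and 4% below. The genes set were drawn from those with a mean above 50 estimated counts, at 1 fixed dispersion. Atp2a1 and Atp2a3 had an SD of 163 and 80.6% of their mean coding TPM. The simulation therefore does not give the power for members with few counts or a wide spread. Genes within a library were compared by exact sign-flip permutation over libraries. Transcript shares were described without a test. Alternatives were all transcripts, the most abundant coding transcript, complete coding ends, a pseudocount of 0.1, a mean of at least 5 counts, rescaling over nuclear coding transcripts, TMM and DESeq2 size factors, edgeR's quasi-likelihood test on estimated counts rounded to whole numbers, and each library left out. Adding transcripts with an identical coding sequence was chosen after seeing the data.

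Members and lists were chosen with earlier results of these data known. Named were all 9 members, in each list the 3 highest and 2 lowest genes and those whose call changed with all transcripts, transcripts with at least 5% of a gene, and the 2 genes most like a member above 5 TPM. Sequences are from the GENCODE M21 transcripts. Tools were R 4.3.3, limma 3.58.1, edgeR 4.0.16, DESeq2 1.42.0 and Python 3.11.15.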

Additional observations from a re-analysis of the deposited data

Results flagged for a closer look

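The coding level of Atp2a1 in library 4, 2.003 TPM, lay far from the other 3 libraries, at 0.98 of the range of all 4 values from its nearest neighbour, where Dixon's 95% critical value for 4 samples is 0.83. It was the only one of 27 levels and shares so examined; chance alone marks about 1 in 20. The overlap with Rabep2 and the muscle markers are given beside its values above.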

How the results depend on the processing

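No paired analysis was possible because the labels give 1 group. The counts of the 9 genes above and below 1 TPM, and of the other genes of calcium stores above, stayed within 1.5 times their main values in all alternatives run. The other store genes below 1 TPM were 3, and 1 to 5 in the alternatives (1 with edgeR, with all transcripts and with rescaling). The calls of Itpr1, Itpr3, Ryr2, Ryr3, Atp2a2 and Atp2a3 held wherever a value could be computed; Itpr3 had none with a mean of at least 5 counts. Itpr2 lost its call with the most abundant coding transcript (0.59, limma adjusted p = 0.0997) and Ryr1 with all transcripts (-0.28). Atp2a1 was below 1 TPM with the most abundant coding transcript (-0.68), with complete coding ends (-0.68) and without library 4 (-0.85).

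With all transcripts, signs turned for Ryr1 over Ryr2 (0.39), Ryr1 over Ryr3 (0.14), Ryr2 over Ryr3 (-0.24) and Casq1 against 1 TPM (0.38); Ryr1 over Ryr3 also turned without library 1, with a range of -0.046 to 0.035 over the libraries left out in turn. The all-transcript sums of Ryr1 and Ryr3 hold retained-intron transcripts; no cause was tested. By estimated counts instead of TPM, shares were 16.4% for Atp2a2-203, 63.0% for Itpr1-205, 97.8% for the coding transcripts of Itpr1, 61.7% for those of Itpr2, 30.3% for Itpr2-201, 30.5% for Itpr2-202 and 5.54% for Itpr2-203. Of coding transcripts only, shares were 90.0% for Atp2a2-201, 62.0% for Itpr1-205, 46.0% for Itpr2-201 and 39.7% for Itpr2-202. Rescaling over nuclear coding transcripts moved the median log2 difference of all genes from 2.46 to 3.03 and changed no member's call. Over all genes, limma called 2773 below 1 TPM, edgeR 919, limma with at least 5 counts 904 and limma with all transcripts 4630. Of the levels of the other genes of calcium stores, recomputed under each alternative, 900 kept their direction and call, 17 lost the call, 5 gained one and 1, Casq1, turned.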
